A study of Mus musculus with 33 samples.

Results

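RA/CHIR-4d against RA-4d compares mouse embryonic stem cells after 4 days with all-trans retinoic acid plus CHIR and after 4 days with retinoic acid alone. The comparison uses 6 of the 33 RNA libraries in the series, with n = 3 in each group. It covers the 13249 of 52631 genes in the deposited table that reached 1 FPKM or more in at least 3 of these 6 libraries. FPKM, fragments scaled to transcript length and library size, is a level relative to the rest of its library. Comparing it between libraries assumes that their RNA is of similar composition. The FPKM of all genes summed to 662096.0 to 763413.8 in the RA/CHIR-4d libraries and to 597009.6 to 614692.1 in the RA-4d libraries. The highest sum is that of RA/CHIR-4d replicate 2, where the gene mt-Ts1 alone was at 89757.4 FPKM. Both groups are differentiated embryonic stem cells of strain 129S2/SvPas that were plated on gelatin in medium with 15% serum. The RA/CHIR-4d cells received 10 µM retinoic acid and 5 µM CHIR, and the RA-4d cells received 10 µM retinoic acid. Retinoic acid is therefore common to both groups, and no group analysed here had CHIR without it. The stem cells had been kept with LIF on inactivated embryonic fibroblasts before plating, and the 3 libraries of that state (mES) are quoted for their levels. The rest of the series follows both treatments to day 16 and adds a smooth muscle line (SMC) and an extraembryonic endoderm line (XEN). The labels call the cells of the RA/CHIR arm XEN-like and those of the RA arm SMC-like at every day, day 4 included. They do not say whether the 3 libraries of a group come from separate cultures, so the p-values measure the spread between these libraries, which may be technical.

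Wnt proteins bind frizzled receptors together with LRP5 or LRP6, which stops the kinase GSK3 from marking beta-catenin for destruction. Beta-catenin then enters the nucleus, joins TCF and LEF proteins on DNA and turns on target genes, many of which encode inhibitors of the pathway itself. CHIR inhibits GSK3 inside the cell and so acts below the ligands and receptors. In mouse embryonic stem cells the pathway supports self-renewal and can also lead to primitive streak and posterior genes, and retinoic acid, acting through nuclear receptors, drives differentiation and sets Hox gene expression.

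Values were tested with limma on log2(FPKM + 1), and p-values, adjusted after Benjamini and Hochberg, cover all 13249 genes. A gene counts as called, higher or lower, where its adjusted p is under 0.05 and its log2 fold change is 1 or more in either direction. Fold changes are RA/CHIR-4d over RA-4d on that log2 scale, which understates the change of weak genes, and a signed value in brackets after a gene is its log2 fold change, with its standard error where given. The calls numbered 1247 genes (9.41% of those tested), with 544 higher (4.11%) and 703 lower (5.31%) in RA/CHIR-4d. Of the calls, 29 higher and 35 lower genes changed by 3 log2 units or more, and 93.2% of the called genes code for proteins. The libraries of the groups did not overlap for 8245 genes (62.2%), with RA/CHIR-4d above for 31.8% and below for 30.4%, so a lack of overlap alone says little about a gene. At an unadjusted p under 0.05, 59.3% of all genes passed, 30.5% higher and 28.7% lower, and the unadjusted counts of gene lists below are to be read against these shares. Called counts of the lists are to be read against 4.11% higher and 5.31% lower. The RA/CHIR-4d libraries held 12960 to 13057 genes at 1 FPKM or more, and the RA-4d libraries 12980 to 13012. Across genes, single libraries correlated at 0.984 to 0.989 within a group and at 0.928 to 0.934 between the groups. The gene mt-Ts1, a mitochondrial transfer RNA, was at 89757.4 FPKM in RA/CHIR-4d replicate 2 and was listed at 0 in the other two replicates. The threshold for entering the test also shapes the list. Among the 758 genes that reached 1 FPKM in exactly 3 libraries, 356 were called, and a gene that passed only through the group where it is high had to differ. Of the higher genes 176 were under 1 FPKM in every RA-4d library, and of the lower genes 180 were under it in every RA/CHIR-4d library. The 758 genes just inside had a median level of 1.19 FPKM over the 6 libraries, and the 502 genes just outside, with exactly 2 such libraries, had 0.819 FPKM.

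**Figure D1:**
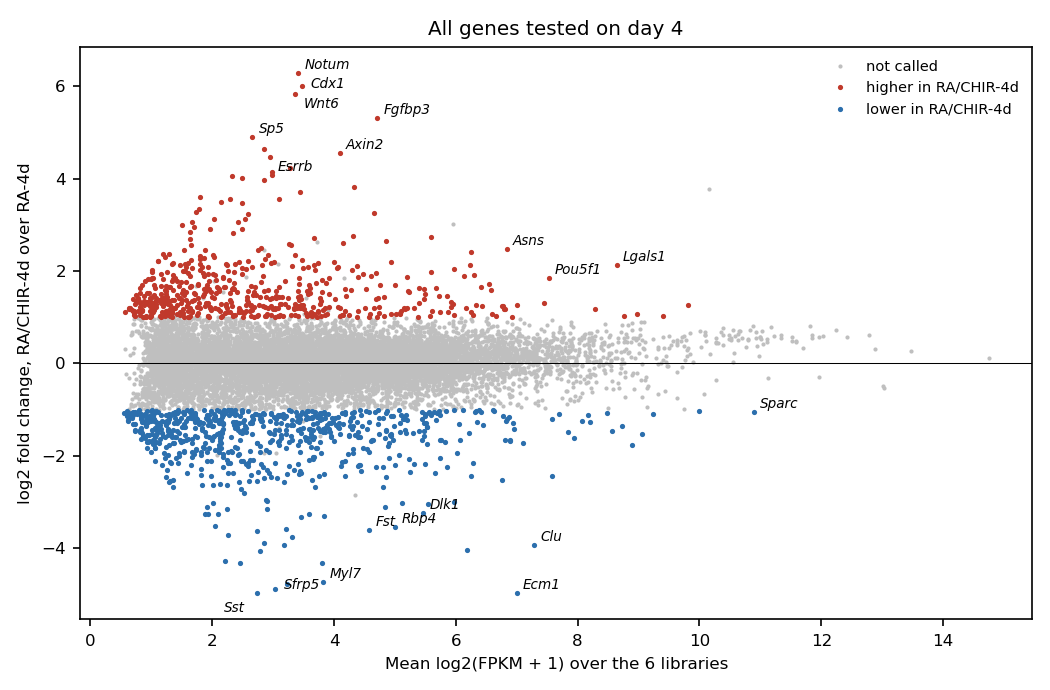
Log2 fold change of RA/CHIR-4d over RA-4d against the mean log2(FPKM + 1) of the 6 libraries, for each of the 13249 genes tested. Called genes are in colour, 544 above and 703 below the zero line, and the changes of Notum (6.29), Cdx1 (6.00) and Wnt6 (5.84) lie at the top.

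Genes for Wnt ligands were mostly higher with CHIR. Of 19 listed ligand genes, 11 passed the filter, and 7 of these were higher and 2 lower, where 4.11% and 5.31% of all genes tested were. Of the 7, 6 were under 1 FPKM in every RA-4d library. They passed the filter only through RA/CHIR-4d and had to differ, so the count describes the list and supports nothing more. Their summed level was 120.4 to 127.0 FPKM in RA/CHIR-4d and 21.7 to 22.8 FPKM in RA-4d, and it was 11.1 to 13.4 FPKM in mES. Wnt6 (chromosome 1, 74771892 to 74785322, GRCm38) made up most of that sum and was at 73.2, 78.5 and 79.3 FPKM in the RA/CHIR-4d libraries, against 0.481, 0.430 and 0.191 FPKM in the RA-4d libraries. Every RA/CHIR-4d library thus lay far above every RA-4d library (log2 fold change 5.84 ± 0.10, adjusted p = 7.86e-08). Wnt2 was at 7.56, 6.41 and 6.87 FPKM in the RA/CHIR-4d libraries, against 0.326, 0.172 and 0.191 FPKM in the RA-4d libraries, again without overlap (log2 fold change 2.69 ± 0.11, adjusted p = 2.37e-06). Wnt8a, a ligand of the early primitive streak in the mouse, was at 4.41, 3.80 and 5.50 FPKM in the RA/CHIR-4d libraries, against 0.158, 0.0619 and 0 FPKM in the RA-4d libraries. It was weak but separate in the groups (log2 fold change 2.37 ± 0.14, adjusted p = 1.51e-05). Wnt10b averaged 2.26 ± 0.568 FPKM in RA/CHIR-4d and 0.205 ± 0.125 FPKM in RA-4d (SD, n = 3; log2 fold change 1.43 ± 0.16, adjusted p = 0.000297). Wnt7a was at 1.92, 1.78 and 1.68 FPKM in the RA/CHIR-4d libraries and was listed at 0 in all 3 RA-4d libraries. Wnt11, which mostly signals without beta-catenin, averaged 11.3 ± 1.36 FPKM in RA/CHIR-4d and 4.46 ± 0.620 FPKM in RA-4d (log2 fold change 1.17 ± 0.12, adjusted p = 0.000175). Wnt3 averaged 1.39 ± 0.259 FPKM in RA/CHIR-4d and 0.128 ± 0.104 FPKM in RA-4d and was called at 1.08, but its change was 0.99 without RA/CHIR-4d replicate 1. The ligand that fell with the firmer call was Wnt4, at 1.66, 1.98 and 1.76 FPKM in the RA/CHIR-4d libraries, against 4.73, 5.14 and 5.61 FPKM in the RA-4d libraries (log2 fold change -1.13 ± 0.10, adjusted p = 9.03e-05). Wnt5a was called at -1.05 and stood at -0.96 without RA-4d replicate 3. It was under 1 FPKM in every RA/CHIR-4d library, so it passed through RA-4d alone and had to differ. In bulk RNA, fewer cells of a type and less RNA per cell cannot be told apart, here and in all results that follow.

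Receptor genes moved in the other direction more often. Of 23 listed receptors, co-receptors and R-spondins, 19 passed the filter, 2 were higher and 6 were lower, and the median log2 fold change was -0.38. The frizzled gene Fzd10 (chromosome 5, 128600844 to 128604093) was at 40.2, 40.7 and 41.7 FPKM in the RA/CHIR-4d libraries, against 1.34, 0.852 and 1.54 FPKM in the RA-4d libraries, with no overlap (log2 fold change 4.23 ± 0.12, adjusted p = 4.59e-07). Ptk7, a pseudokinase co-receptor of planar cell polarity signalling, was the other member that rose, at 85.6 ± 3.01 FPKM in RA/CHIR-4d and 38.8 ± 1.93 FPKM in RA-4d (1.12). Fzd4 was at 3.15, 2.32 and 2.29 FPKM in the RA/CHIR-4d libraries, against 18.2, 18.5 and 19.7 FPKM in the RA-4d libraries (log2 fold change -2.47 ± 0.11, adjusted p = 3.18e-06). Fzd1 averaged 1.26 ± 0.462 FPKM in RA/CHIR-4d and 10.6 ± 0.994 FPKM in RA-4d (log2 fold change -2.38 ± 0.16, adjusted p = 2.22e-05). Fzd7, the frizzled gene with the highest level in RA-4d, averaged 16.7 ± 0.483 FPKM in RA/CHIR-4d and 51.9 ± 1.70 FPKM in RA-4d (log2 fold change -1.58 ± 0.05, adjusted p = 6.19e-07). Fzd2 (-1.28), the R-spondin receptor gene Lgr4 (-1.49) and the Wnt5a receptor gene Ror1 (-1.22) also fell. The co-receptor genes Lrp5 and Lrp6 were not called, with log2 fold changes of 0.10 ± 0.08 and -0.64 ± 0.09. Fzd10 thus rose while 4 other frizzled genes fell.

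The antagonists listed as secreted split into strong changes on both sides. The list also holds genes such as Shisa3, whose product acts inside the cell. Of 20 listed, 12 passed the filter, 3 were higher and 7 lower. Of these, 2 of the higher genes were under 1 FPKM in every RA-4d library and 3 of the lower ones in every RA/CHIR-4d library, so they passed through 1 group alone. Notum (chromosome 11, 120653788 to 120661175), which encodes an esterase that strips the lipid from Wnt proteins, was at 91.2, 87.2 and 101 FPKM in the RA/CHIR-4d libraries, against 0, 0.257 and 0.382 FPKM in the RA-4d libraries. Its change was the largest of all genes named here (log2 fold change 6.29 ± 0.13, adjusted p = 1.59e-07). It overlaps the antisense genes Notumos and Myadml2os, whose reads may be shared, since no source used here says that counting was stranded. Wif1, whose product binds Wnt proteins outside the cell, was at 19.8, 16.7 and 22.5 FPKM in the RA/CHIR-4d libraries, against 0.321, 0.0505 and 0.321 FPKM in the RA-4d libraries (log2 fold change 4.07 ± 0.14, adjusted p = 1.24e-06). Dkk1, which encodes a blocker of LRP5 and LRP6, was at 21.9, 21.3 and 22.2 FPKM in the RA/CHIR-4d libraries, against 4.76, 5.22 and 3.63 FPKM in the RA-4d libraries, all higher in RA/CHIR-4d (log2 fold change 2.05 ± 0.11, adjusted p = 8.93e-06). Genes of secreted frizzled-related proteins, which bind Wnts, were among the lower ones. Sfrp5 (chromosome 19, 42197971 to 42202252) was at 0.696, 0.463 and 0.369 FPKM in the RA/CHIR-4d libraries, against 41.8, 44.6 and 45.1 FPKM in the RA-4d libraries (log2 fold change -4.90 ± 0.10, adjusted p = 1.47e-07). Sfrp1 was at 3.04, 2.89 and 2.75 FPKM in the RA/CHIR-4d libraries, against 36.0, 35.9 and 37.8 FPKM in the RA-4d libraries (log2 fold change -3.27 ± 0.06, adjusted p = 1.34e-07). Frzb, of the same family, averaged 1.86 ± 0.399 FPKM in RA/CHIR-4d and 11.7 ± 0.464 FPKM in RA-4d (log2 fold change -2.16 ± 0.12, adjusted p = 7.8e-06). Sfrp2 was not called (-0.08 ± 0.12). Shisa3, whose product holds frizzled receptors inside the cell, averaged 0.0510 ± 0.0638 FPKM in RA/CHIR-4d and 19.4 ± 0.856 FPKM in RA-4d (log2 fold change -4.28 ± 0.09, adjusted p = 1.82e-07), and it overlaps Atp8a1. Dkk3 (-1.69) and Trabd2b (-1.73), which encodes a protease that cleaves Wnt proteins, were lower as well. Shisa2 was called at -1.02, but stood at -0.94 without RA/CHIR-4d replicate 3.

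**Figure D2:**
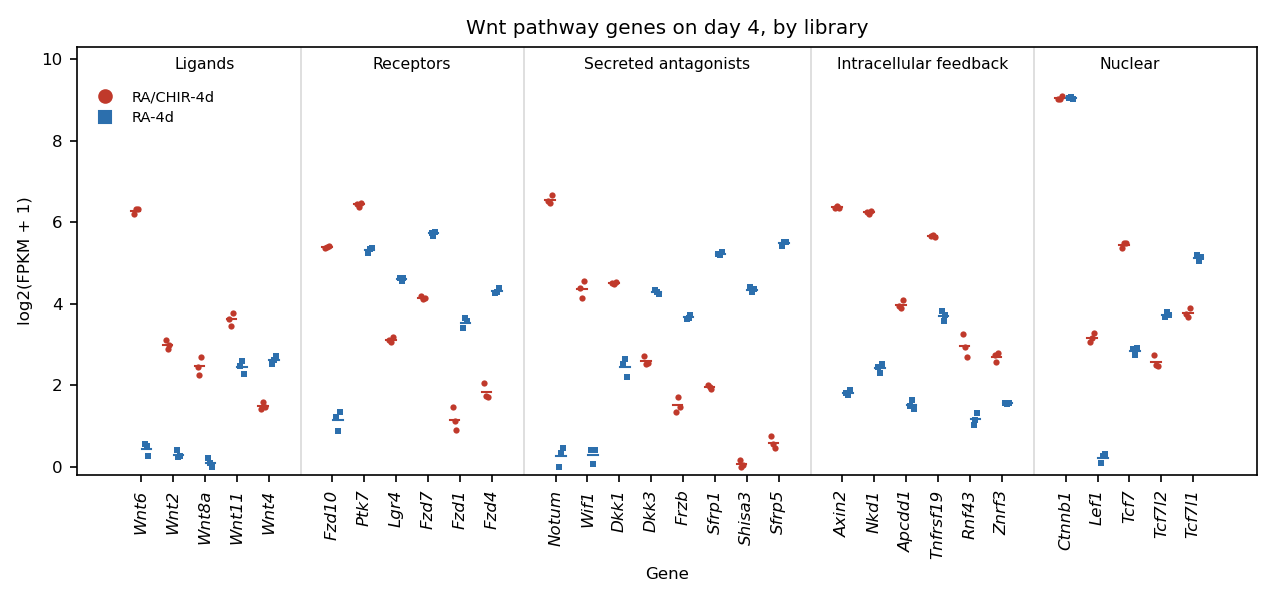
Log2(FPKM + 1) of Wnt pathway genes in each library, with circles for the 3 RA/CHIR-4d libraries and squares for the 3 RA-4d libraries, ordered by role in the pathway. Axin2 and Notum lie far apart in the groups, Sfrp5 and Fzd4 lie apart in the other direction, and the points of Ctnnb1 coincide.

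Inside the cell or at its membrane, most feedback genes that changed were higher. Of 12 listed, 11 passed the filter, 6 were higher and 2 lower, with a median log2 fold change of 1.14. Axin2 (chromosome 11, 108920349 to 108950783), which encodes a scaffold of the complex that destroys beta-catenin, was at 80.2, 83.1 and 80.8 FPKM in the RA/CHIR-4d libraries, against 2.50, 2.40 and 2.67 FPKM in the RA-4d libraries. The RA/CHIR-4d libraries were all far above the RA-4d libraries (log2 fold change 4.55 ± 0.06, adjusted p = 2.68e-08), and Axin2 overlaps the predicted gene Gm11670. Nkd1, which encodes a protein that binds dishevelled, was at 74.7, 72.9 and 76.1 FPKM in the RA/CHIR-4d libraries, against 4.44, 3.94 and 4.77 FPKM in the RA-4d libraries (log2 fold change 3.81 ± 0.07, adjusted p = 1.15e-07). Apcdd1, an inhibitor at the cell membrane, averaged 14.8 ± 1.06 FPKM in RA/CHIR-4d and 1.87 ± 0.234 FPKM in RA-4d (log2 fold change 2.46 ± 0.10, adjusted p = 1.98e-06). Tnfrsf19, a receptor of the TNF family, averaged 49.8 ± 0.779 FPKM in RA/CHIR-4d and 12.1 ± 1.07 FPKM in RA-4d (log2 fold change 1.96 ± 0.07, adjusted p = 1.1e-06). Rnf43 (1.80) and Znrf3 (1.14), ubiquitin ligases that remove frizzled receptors from the membrane, were both higher. Dact2, which encodes a dishevelled-binding protein, fell, at 12.5, 10.7 and 12.5 FPKM in the RA/CHIR-4d libraries, against 59.1, 59.6 and 61.6 FPKM in the RA-4d libraries (log2 fold change -2.25 ± 0.07, adjusted p = 5.85e-07). Amotl2, of the angiomotin family, averaged 53.7 ± 2.23 FPKM in RA/CHIR-4d and 137 ± 3.07 FPKM in RA-4d (log2 fold change -1.34 ± 0.04, adjusted p = 6.99e-07). The related genes Dact1 (-0.22 ± 0.06) and Dact3 (-0.83 ± 0.08) were not called.

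Promoters of 4 of the strongest Wnt targets were read from RefSeq (GRCm38.p6), from 250 bases before to 50 bases after the start of the gene, and searched for CTTTGAT, a core that TCF and LEF proteins are known to bind, on both strands. Of these, the promoters of Sp5, Axin2, Wif1 and Nkd1, 1 held a match. The promoters of Sp5, at chr2:70474673-70474972 on the plus strand, and of Axin2, at chr11:108920099-108920398 on the plus strand, are shown because one has the motif and the other has not, and both genes rose by more than 4 log2 units. Capitals mark the match, which starts 104 bases before the start of Sp5.
Sp5: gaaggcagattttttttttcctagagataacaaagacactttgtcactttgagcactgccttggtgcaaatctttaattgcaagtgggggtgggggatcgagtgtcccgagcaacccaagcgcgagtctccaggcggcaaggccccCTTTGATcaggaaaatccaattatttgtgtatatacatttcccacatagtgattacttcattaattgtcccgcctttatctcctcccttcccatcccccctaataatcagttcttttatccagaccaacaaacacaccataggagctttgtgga
Axin2: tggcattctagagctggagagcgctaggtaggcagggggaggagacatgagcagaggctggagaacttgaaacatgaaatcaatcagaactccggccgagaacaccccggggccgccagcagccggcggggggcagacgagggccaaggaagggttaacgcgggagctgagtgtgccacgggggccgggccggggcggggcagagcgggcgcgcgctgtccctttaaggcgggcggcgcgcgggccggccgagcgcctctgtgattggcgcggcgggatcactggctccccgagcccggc
The motif was in 3.73% of all 32851 promoters of the table, in 2.4% of the 9699 promoters of genes tested, in 15 of 372 promoters of higher genes (4.03%) and in 11 of 502 promoters of lower genes (2.19%). A match is a description of these letters only, and no match says only that they are not in this window.

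Most genes of the core machinery were not called. Of 24 listed genes of the destruction complex and its nuclear partners, 23 passed the filter and 4 were called (17.4%), and these 4 were the TCF and LEF genes themselves. Of the 23, 3 were higher and 12 lower at an unadjusted p under 0.05, where 30.5% and 28.7% of all genes were. Ctnnb1, the gene of beta-catenin, was at 515, 519.9 and 546 FPKM in the RA/CHIR-4d libraries, against 532, 541 and 517 FPKM in the RA-4d libraries, with ranges that overlapped (-0.01 ± 0.03, adjusted p = 0.858). The genes of the drug target, Gsk3a (-0.18 ± 0.06) and Gsk3b (-0.25 ± 0.08), were not called, nor were Apc (-0.18 ± 0.10) and Axin1 (-0.13 ± 0.06). Lef1 (chromosome 3, 131110471 to 131224356) was at 7.34, 7.89 and 8.79 FPKM in the RA/CHIR-4d libraries, against 0.0680, 0.195 and 0.241 FPKM in the RA-4d libraries (log2 fold change 2.95 ± 0.11, adjusted p = 1.91e-06). Tcf7, which also encodes an activating partner of beta-catenin, was at 40.4, 44.0 and 43.6 FPKM in the RA/CHIR-4d libraries, against 6.39, 5.67 and 6.51 FPKM in the RA-4d libraries (log2 fold change 2.60 ± 0.07, adjusted p = 3.51e-07). Tcf7l1, known in stem cells mainly as a repressor, was at 12.4, 11.8 and 13.95 FPKM in the RA/CHIR-4d libraries, against 35.7, 31.9 and 34.3 FPKM in the RA-4d libraries (log2 fold change -1.35 ± 0.08, adjusted p = 9.5e-06). Tcf7l2 fell as well, at 4.99 ± 0.658 FPKM in RA/CHIR-4d and 12.3 ± 0.638 FPKM in RA-4d (-1.16). Lef1 and Tcf7 were thus higher in every RA/CHIR-4d library, and Tcf7l1 and Tcf7l2 were lower in every one. Lef1 was under 1 FPKM in every RA-4d library, so it passed through RA/CHIR-4d alone and had to differ.

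Transcription factor genes known as Wnt targets in one tissue or another gave 9 higher and 5 lower among the 23 of 26 that passed the filter. Of the 9, 5 were under 1 FPKM in every RA-4d library and passed through RA/CHIR-4d alone, as did 1 of the 5 through RA-4d alone. The caudal gene Cdx1, a regulator of posterior patterning, was at 86.8, 86.5 and 91.7 FPKM in the RA/CHIR-4d libraries, against 0.487, 0.455 and 0.252 FPKM in the RA-4d libraries (log2 fold change 6.0 ± 0.09, adjusted p = 4.38e-08). Sp5 (chromosome 2, 70474923 to 70477729), a zinc finger gene that responds directly to beta-catenin, was at 35.4, 30.2 and 35.0 FPKM in the RA/CHIR-4d libraries, against 0.221, 0.257 and 0 FPKM in the RA-4d libraries (log2 fold change 4.90 ± 0.12, adjusted p = 2.47e-07). Tlx2, a homeobox gene, was at 34.0, 35.4 and 36.1 FPKM in the RA/CHIR-4d libraries, against 0.392, 0.756 and 0.215 FPKM in the RA-4d libraries (log2 fold change 4.65 ± 0.14, adjusted p = 5.29e-07). None of the 3 genes had overlapping libraries. Zic1 (3.50), Pitx1 (3.26), Msx1 (2.76) and Cdx2 (1.62) rose by lesser folds. Pitx1, a homeobox gene of the hindlimb, was the most abundant of these, with 76.7 ± 5.74 FPKM in RA/CHIR-4d and 7.11 ± 0.317 FPKM in RA-4d. Among the members that fell, Sox4 averaged 11 ± 0.918 FPKM in RA/CHIR-4d and 35.4 ± 0.589 FPKM in RA-4d (log2 fold change -1.60 ± 0.07, adjusted p = 2.6e-06). Id2, a BMP-responsive inhibitor of helix-loop-helix factors, averaged 36.8 ± 1.44 FPKM in RA/CHIR-4d and 118 ± 0.499 FPKM in RA-4d (log2 fold change -1.65 ± 0.04, adjusted p = 2.4e-07). Mycn (-1.18) was lower. Myc, often cited as a Wnt target, was at 6.51, 6.51 and 6.66 FPKM in the RA/CHIR-4d libraries, against 5.53, 6.97 and 5.42 FPKM in the RA-4d libraries, and it was not called (0.12 ± 0.10, adjusted p = 0.342). The cyclin gene Ccnd1, in the cell cycle list, was at 11.5, 10.9 and 13.2 FPKM in the RA/CHIR-4d libraries, against 1.90, 1.92 and 2.35 FPKM in the RA-4d libraries (log2 fold change 2.08 ± 0.11, adjusted p = 6.18e-06), and it overlaps Oraov1. The other cyclin D genes, Ccnd2 (0.51 ± 0.06) and Ccnd3 (-0.73 ± 0.06), were not called.

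Of 25 primitive streak and mesoderm genes, 12 passed the filter, 5 were higher and 1 lower. All 5 higher genes were under 1 FPKM in every RA-4d library, and the lower one was under it in every RA/CHIR-4d library. They passed through 1 group alone and had to differ. The list summed to 722 to 759 FPKM in RA/CHIR-4d and 1127.0 to 1195.9 FPKM in RA-4d, most of it Cyp26a1. Fgf8, a growth factor gene of the streak, was at 1.88, 2.82 and 3.82 FPKM in the RA/CHIR-4d libraries, against 0, 0.197 and 0 FPKM in the RA-4d libraries (log2 fold change 1.82 ± 0.20, adjusted p = 0.000268). T, the brachyury gene, was at 1.23, 1.11 and 1.77 FPKM in the RA/CHIR-4d libraries, against 0, 0 and 0.0515 FPKM in the RA-4d libraries (log2 fold change 1.21 ± 0.15, adjusted p = 0.00041). The groups did not overlap for either gene. Evx1 was called at 1.01, but stood at 0.93 without RA/CHIR-4d replicate 1 and at 0.97 without RA-4d replicate 1. Without RA/CHIR-4d replicate 1, 3 genes in place of 5 were higher, since Wnt3 is a member too. Nodal (0.75 ± 0.14) and Eomes (0.63 ± 0.12) were not called. Foxf1, a forkhead gene of lateral and visceral mesoderm, was the one that fell, at 0.887, 0.760 and 0.981 FPKM in the RA/CHIR-4d libraries, against 26.6, 28.1 and 25.2 FPKM in the RA-4d libraries (log2 fold change -3.88 ± 0.08, adjusted p = 1.82e-07).

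Stem cell genes were partly higher with CHIR, far below their levels before treatment. Of 20 listed naive pluripotency genes, 16 passed the filter, 6 were higher and 3 lower. Their summed level was 342 to 346 FPKM in RA/CHIR-4d, 251 to 259 FPKM in RA-4d and 2516.1 to 2715.9 FPKM in mES. Esrrb (chromosome 12, 86361117 to 86521628), an orphan nuclear receptor gene that beta-catenin is known to release from repression by Tcf7l1 in mouse stem cells, was at 32.6, 29.5 and 32.3 FPKM in the RA/CHIR-4d libraries, against 0.819, 0.884 and 1.04 FPKM in the RA-4d libraries. The groups were wide apart (log2 fold change 4.08 ± 0.08, adjusted p = 1.59e-07), and mES cells averaged 214 FPKM. Nr0b1, another nuclear receptor gene, was at 13.5, 15.8 and 19.8 FPKM in the RA/CHIR-4d libraries, against 0.757, 1.27 and 0.905 FPKM in the RA-4d libraries (log2 fold change 3.13 ± 0.16, adjusted p = 6.08e-06). Tcl1, which encodes a co-activator of AKT, averaged 22.4 ± 2.63 FPKM in RA/CHIR-4d and 2.94 ± 0.715 FPKM in RA-4d (log2 fold change 2.58 ± 0.15, adjusted p = 1.09e-05). Tfcp2l1 averaged 9.93 ± 0.155 FPKM in RA/CHIR-4d and 1.88 ± 0.0354 FPKM in RA-4d (log2 fold change 1.93 ± 0.08, adjusted p = 2.07e-06). Jam2, which encodes a junctional adhesion molecule, averaged 7.20 ± 1.65 FPKM in RA/CHIR-4d and 1.56 ± 0.119 FPKM in RA-4d (log2 fold change 1.66 ± 0.15, adjusted p = 9.12e-05). Nanog was at 4.66, 4.93 and 5.47 FPKM in the RA/CHIR-4d libraries, against 0.606, 0.638 and 0.589 FPKM in the RA-4d libraries, above RA-4d in every library but well below the mES mean of 377 FPKM. Being under 1 FPKM in every RA-4d library, it passed through RA/CHIR-4d alone and had to differ. Not all genes of the list followed. Klf2 (0.09 ± 0.14), Klf4 (0.79 ± 0.06) and Zfp42 (0.53 ± 0.05) were not called. Genes of the LIF pathway were among those that fell, with Socs3, the feedback inhibitor, at 6.11, 4.23 and 5.36 FPKM in the RA/CHIR-4d libraries, against 32.0, 31.0 and 31.9 FPKM in the RA-4d libraries (log2 fold change -2.40 ± 0.11, adjusted p = 4.13e-06). Stat3, the transcription factor of the pathway, which overlaps Stat5a, averaged 15.5 ± 0.318 FPKM in RA/CHIR-4d and 33.4 ± 2.05 FPKM in RA-4d (-1.06). Tdh, which encodes a threonine dehydrogenase typical of mouse stem cells, averaged 12.9 ± 0.705 FPKM in RA/CHIR-4d and 42.9 ± 0.141 FPKM in RA-4d (log2 fold change -1.66 ± 0.05, adjusted p = 8.11e-07).

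Of the 19 general pluripotency genes, all of which passed the filter, 3 were higher and 3 lower, with a median log2 fold change of -0.24. Pou5f1 was at 352, 349.9 and 346 FPKM in the RA/CHIR-4d libraries, against 93.8, 95.9 and 98.3 FPKM in the RA-4d libraries, a level that was higher in every RA/CHIR-4d library. Dppa2 (1.57) and Sox2 (1.12) were higher as well. Tdgf1, which encodes the Nodal co-receptor Cripto, was at 0.719, 0.363 and 0.251 FPKM in the RA/CHIR-4d libraries, against 6.01, 8.66 and 9.45 FPKM in the RA-4d libraries (log2 fold change -2.64 ± 0.19, adjusted p = 3.11e-05). Its mean in mES was 773 FPKM. Tdgf1 was under 1 FPKM in every RA/CHIR-4d library, so it passed through RA-4d alone and had to differ. Lin28a (-1.20) and Zscan10 (-1.11) were lower too. Mymx, one of the 15 genes with the largest rise, is known for its part in myoblast fusion. It averaged 27.9 ± 5.98 FPKM in RA/CHIR-4d and 0.853 ± 0.475 FPKM in RA-4d (log2 fold change 3.97 ± 0.22, adjusted p = 8.86e-06), and 308 FPKM in mES. Feeder fibroblast markers, which carried-over feeder cells would bring, had 2 higher and 4 lower among the 14 of 18 that passed. Their summed level was 55.9 to 62.4 FPKM in RA/CHIR-4d, 73.9 to 78.4 FPKM in RA-4d and 94.7 to 125 FPKM in mES. The count of 2 higher markers is 1 without RA-4d replicate 1 or without any one RA/CHIR-4d replicate, and the part of such cells in the results above was not tested. Of the 4 lower markers, 1 passed through RA-4d alone and had to differ. Col3a1, a fibrillar collagen gene, was the marker that differed most, at 3.45, 1.85 and 1.21 FPKM in the RA/CHIR-4d libraries, against 14.9, 16.1 and 17 FPKM in the RA-4d libraries (log2 fold change -2.48 ± 0.24, adjusted p = 0.000125).

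Extraembryonic endoderm genes bear on the XEN-like label of the RA/CHIR arm, and on day 4 most of those called were lower with CHIR. Of 20 primitive endoderm genes, all of which passed, 3 were higher and 8 lower. Of 19 parietal endoderm genes, all of which passed, 1 was higher and 12 were lower. The higher one passed through RA/CHIR-4d alone and 1 of the 12 through RA-4d alone, so both had to differ. The summed level of the primitive endoderm list was 2577.1 to 2596.7 FPKM in RA/CHIR-4d, 4900.1 to 5154.0 FPKM in RA-4d and 4852.6 to 5097.8 FPKM in the XEN line, against 417 to 560.2 FPKM in mES. That of the parietal list was 4660.2 to 4699.8 FPKM in RA/CHIR-4d, 9270.3 to 9439.1 FPKM in RA-4d, 12000.9 to 12571.9 FPKM in XEN and 15067.0 to 15464.0 FPKM in SMC. Both sums are led by abundant matrix genes, which the SMC line expresses too, and on day 4 it is the RA-4d cells whose sums lie nearer to XEN.

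Most of the matrix genes among them fell. Lamc1 (chromosome 1, 153218922 to 153332786), a laminin chain gene, was at 318, 308 and 310.1 FPKM in the RA/CHIR-4d libraries, against 867, 935 and 922 FPKM in the RA-4d libraries (log2 fold change -1.54 ± 0.04, adjusted p = 2.14e-07). Lama1 averaged 136 ± 0.800 FPKM in RA/CHIR-4d and 384 ± 12.2 FPKM in RA-4d (log2 fold change -1.49 ± 0.03, adjusted p = 1.82e-07), and Lamb1 averaged 265 ± 1.98 FPKM in RA/CHIR-4d and 679.7 ± 19.4 FPKM in RA-4d (log2 fold change -1.35 ± 0.03, adjusted p = 1.83e-07). Col4a1 (-1.03) and Col4a2 (-1.10), the paired type IV collagen genes that share a promoter and overlap in the annotation, were lower. Sparc, which encodes a collagen-binding protein, averaged 1315 ± 15.1 FPKM in RA/CHIR-4d and 2729 ± 76.0 FPKM in RA-4d (-1.05). Of the wider basement membrane list, 15 of 22 passed, 1 was higher and 8 were lower. The higher one passed through RA/CHIR-4d alone and had to differ. Dab2, an endocytic adaptor, was at 35.5, 36.6 and 36.2 FPKM in the RA/CHIR-4d libraries, against 165, 157 and 169 FPKM in the RA-4d libraries (log2 fold change -2.15 ± 0.04, adjusted p = 1.29e-07). The uptake receptor genes Cubn (-1.53) and Lrp2 (-1.25) were lower. Fst, which encodes the activin binder follistatin, was at 5.95, 5.50 and 5.97 FPKM in the RA/CHIR-4d libraries, against 86.0, 80.2 and 80.6 FPKM in the RA-4d libraries (log2 fold change -3.61 ± 0.06, adjusted p = 6.1e-08). Plat, which encodes tissue plasminogen activator, averaged 15.3 ± 1.06 FPKM in RA/CHIR-4d and 133 ± 4.14 FPKM in RA-4d (log2 fold change -3.04 ± 0.06, adjusted p = 1.31e-07). Pth1r, a parietal endoderm marker that overlaps Myl3, averaged 51.3 ± 1.26 FPKM in RA/CHIR-4d and 125 ± 6.87 FPKM in RA-4d (log2 fold change -1.27 ± 0.05, adjusted p = 1.75e-06).

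Among the regulators of this lineage, the GATA genes stayed short of the fold threshold and Sox17 rose. Gata4 was at 74.0, 68.5 and 72.5 FPKM in the RA/CHIR-4d libraries, against 133, 134 and 129 FPKM in the RA-4d libraries. Gata6 was at 48.8, 48.9 and 46.2 FPKM in the RA/CHIR-4d libraries, against 93.8, 91.4 and 96.8 FPKM in the RA-4d libraries. Both were lower in every RA/CHIR-4d library, and neither passed the fold threshold (-0.87 ± 0.04 and -0.96 ± 0.04), although Gata6 reached -1.0 and was called after quantile normalization. Pdgfra (0.16 ± 0.05) and Sox7 (-0.61 ± 0.06) were not called. Sox17 was higher, at 174, 159.9 and 160.1 FPKM in the RA/CHIR-4d libraries, against 71.1, 72.9 and 72.8 FPKM in the RA-4d libraries (log2 fold change 1.18 ± 0.04, adjusted p = 1.4e-06). Cited1, which encodes a transcriptional co-regulator, was at 151, 148 and 169 FPKM in the RA/CHIR-4d libraries, against 39.2, 30.5 and 35.1 FPKM in the RA-4d libraries (log2 fold change 2.13 ± 0.09, adjusted p = 3.12e-06). Aqp8, a water channel gene, averaged 95.1 ± 2.70 FPKM in RA/CHIR-4d and 23.3 ± 1.07 FPKM in RA-4d (log2 fold change 1.98 ± 0.05, adjusted p = 2.4e-07). Of 23 visceral endoderm genes, 16 passed, 2 were higher and 8 lower, and 4 of the 8 passed through RA-4d alone. Ihh, which encodes the Indian hedgehog ligand, was at 34.5, 33.9 and 31.8 FPKM in the RA/CHIR-4d libraries, against 5.79, 8.31 and 7.44 FPKM in the RA-4d libraries (log2 fold change 2.08 ± 0.12, adjusted p = 9.5e-06). Apoe was called at 1.03 and stood at 0.96 after quantile normalization, which leaves 1 of the 2. Ttr, the thyroxine carrier gene, was at 0.207, 0.216 and 0.246 FPKM in the RA/CHIR-4d libraries, against 23.3, 25.9 and 21.8 FPKM in the RA-4d libraries (log2 fold change -4.33 ± 0.09, adjusted p = 1.77e-07). Rbp4, the retinol carrier gene, was at 7.70, 7.65 and 10.1 FPKM in the RA/CHIR-4d libraries, against 108, 109 and 109 FPKM in the RA-4d libraries (log2 fold change -3.54 ± 0.10, adjusted p = 3.9e-07). Apoa1 averaged 0.272 ± 0.0916 FPKM in RA/CHIR-4d and 10.1 ± 1.42 FPKM in RA-4d (log2 fold change -3.12 ± 0.13, adjusted p = 2.3e-06). The summed level of the visceral list was 739 to 757 FPKM in RA/CHIR-4d, 551 to 568 FPKM in RA-4d and 913 to 1218.9 FPKM in XEN. The mES libraries, at 1056.8 to 1252.6 FPKM, overlapped XEN on this list. The RA/CHIR-4d cells thus lie nearer to XEN and also nearer to mES, so this sum does not bear on the XEN-like label. In both groups Apoe alone makes up most of the sum.

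The SMC-like label of the RA arm was checked in the same way. The contractile smooth muscle list summed to 851 to 907 FPKM in RA/CHIR-4d, 1232.6 to 1257.1 FPKM in RA-4d and 27785.1 to 28675.9 FPKM in the SMC line, so neither group carried that programme at the level of the line on day 4. Of 20 listed genes, 15 passed, and limma called Pgm5 alone (-1.26), while 11 were lower and 1 higher at an unadjusted p under 0.05, beside 28.7% and 30.5% of all genes. Pgm5 was under 1 FPKM in every RA/CHIR-4d library, so it passed through RA-4d alone and had to differ. Without RA-4d replicate 2, 1 gene of the list was called higher. Acta2, the smooth muscle actin gene, was at 95.6, 89.3 and 86.0 FPKM in the RA/CHIR-4d libraries, against 88.2, 91.7 and 90.2 FPKM in the RA-4d libraries, with overlapping ranges (0.00 ± 0.05). Tagln, which encodes transgelin, averaged 106 ± 4.90 FPKM in RA/CHIR-4d and 165 ± 2.73 FPKM in RA-4d (-0.64 ± 0.04). The groups are called by their treatment throughout.

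Among genes of retinoid metabolism and response, more fell than rose with CHIR. Of 24 listed, 22 passed, 2 were higher and 8 lower, with a median log2 fold change of -0.83. Rarb (chromosome 14, 16430839 to 16819156), a receptor gene that retinoic acid induces directly and that overlaps Top2b, was at 14.7, 16.2 and 16.7 FPKM in the RA/CHIR-4d libraries, against 67.5, 64.4 and 66.6 FPKM in the RA-4d libraries (log2 fold change -2.0 ± 0.06, adjusted p = 5.14e-07). Cyp26b1, which encodes a retinoic acid hydroxylase, was at 9.95, 7.94 and 8.60 FPKM in the RA/CHIR-4d libraries, against 82.9, 82.4 and 84.3 FPKM in the RA-4d libraries (log2 fold change -3.10 ± 0.08, adjusted p = 2.76e-07). Its paralog Cyp26a1 was at 619.9, 593 and 616 FPKM in the RA/CHIR-4d libraries, against 1057, 1047 and 990.1 FPKM in the RA-4d libraries, lower in every RA/CHIR-4d library but not called (-0.76 ± 0.03), while mES cells averaged 2.11 FPKM. Tgm2, the tissue transglutaminase gene, which overlaps Rprd1b, was at 1.02, 0.583 and 0.828 FPKM in the RA/CHIR-4d libraries, against 47.1, 47.5 and 49.8 FPKM in the RA-4d libraries (log2 fold change -4.77 ± 0.10, adjusted p = 1.71e-07). Aldh1a2, which encodes an enzyme that makes retinoic acid, averaged 2.36 ± 0.187 FPKM in RA/CHIR-4d and 16.3 ± 0.346 FPKM in RA-4d (log2 fold change -2.37 ± 0.08, adjusted p = 8.47e-07). The homeobox cofactor genes Meis1 (-1.62) and Meis2 (-2.05) fell. Not every retinoic acid response was lower. Stra6, which encodes the membrane receptor for retinol-binding protein, was at 174, 157 and 169 FPKM in the RA/CHIR-4d libraries, against 72.8, 67.7 and 67.9 FPKM in the RA-4d libraries (log2 fold change 1.25 ± 0.05, adjusted p = 2.21e-06). Crabp2, which encodes a carrier of retinoic acid in the cell, averaged 264 ± 6.33 FPKM in RA/CHIR-4d and 138 ± 2.69 FPKM in RA-4d, short of the threshold (0.94 ± 0.03). Stra8 was called at 1.05 and stood at 0.98 without RA-4d replicate 2.

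The Hox genes that rose and most of those that fell lie at different positions. These genes sit in 4 clusters, and their paralog group, from 1 to 13, runs from genes of anterior to genes of posterior body levels. Of 39 Hox genes, 31 passed the filter, 3 were higher and 12 lower. The 3 that rose belong to groups 9 and 10. Hoxa9 was at 21.1, 20.2 and 20.1 FPKM in the RA/CHIR-4d libraries, against 5.29, 5.86 and 6.58 FPKM in the RA-4d libraries (log2 fold change 1.64 ± 0.08, adjusted p = 5.98e-06). Hoxd9 averaged 6.51 ± 0.767 FPKM in RA/CHIR-4d and 1.43 ± 0.210 FPKM in RA-4d (log2 fold change 1.63 ± 0.12, adjusted p = 3.11e-05). Hoxa10 averaged 15.3 ± 0.668 FPKM in RA/CHIR-4d and 5.89 ± 0.540 FPKM in RA-4d (log2 fold change 1.25 ± 0.08, adjusted p = 2.14e-05). Of the 12 that fell, 11 belong to groups 2 to 8. All 3 tested genes of group 5 fell. Hoxa5 was at 25.3, 22.4 and 28.7 FPKM in the RA/CHIR-4d libraries, against 107, 109 and 107 FPKM in the RA-4d libraries (log2 fold change -2.05 ± 0.08, adjusted p = 2.21e-06). Hoxb5, which overlaps Hoxb5os, averaged 1.82 ± 0.771 FPKM in RA/CHIR-4d and 15.1 ± 0.507 FPKM in RA-4d (log2 fold change -2.55 ± 0.18, adjusted p = 2.79e-05). Hoxc5, which overlaps Hoxc10 in the annotation, averaged 3.92 ± 1.62 FPKM in RA/CHIR-4d and 14.4 ± 1.32 FPKM in RA-4d (log2 fold change -1.69 ± 0.22, adjusted p = 0.000555). Hoxa4 (-2.68) and Hoxb8 (-1.56) fell as well. Hoxb1, which responds early to retinoic acid, averaged 10.4 ± 1.22 FPKM in RA/CHIR-4d and 14.9 ± 1.81 FPKM in RA-4d and was not called (-0.48 ± 0.11). Hoxb13, the most posterior gene of its cluster, fell, at 1.20, 1.30 and 1.02 FPKM in the RA/CHIR-4d libraries, against 13.6, 13.9 and 12.6 FPKM in the RA-4d libraries (log2 fold change -2.72 ± 0.09, adjusted p = 9.98e-07). With a pseudocount of 0.1 the higher count is 5 in place of 3. The difference between the groups of positions was not tested.

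**Figure D3:**
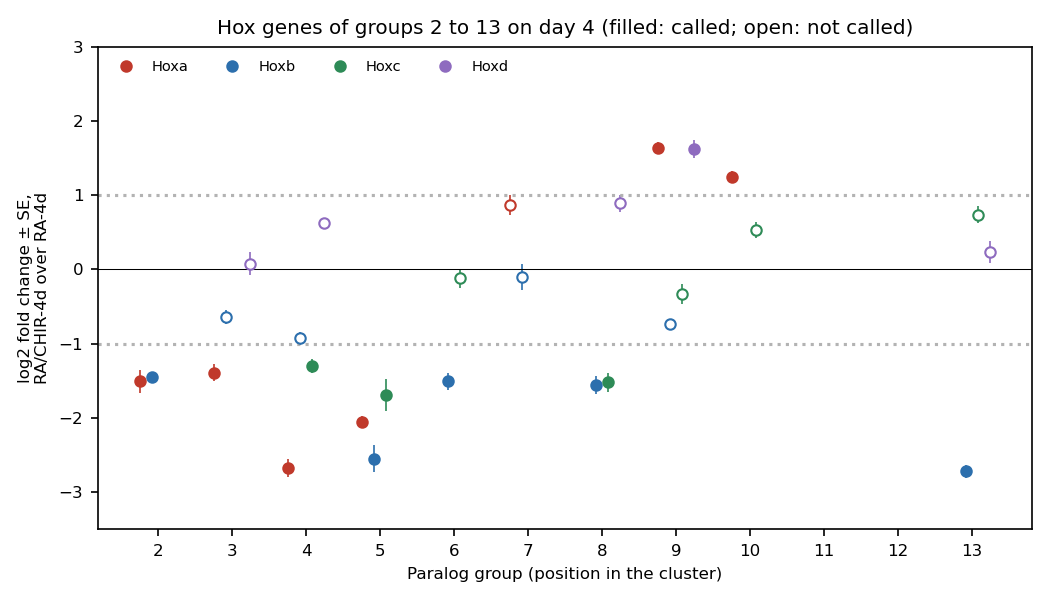
Log2 fold change of RA/CHIR-4d over RA-4d, with its standard error, for the Hox genes tested in paralog groups 2 to 13, by group and coloured by cluster. Filled points are called; those above zero are Hoxa9, Hoxd9 and Hoxa10, and the filled points below zero lie in groups 2 to 8 except Hoxb13 at -2.72.

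Many imprinted genes, which are expressed from 1 parental copy, fell. Of 20 listed, 19 passed, 1 was higher and 11 lower (63.2% called), with a median log2 fold change of -1.27. The summed level was 951 to 960.1 FPKM in RA/CHIR-4d, 2595.2 to 2629.2 FPKM in RA-4d and 525 to 669.6 FPKM in mES. Igf2, a fetal growth factor gene that overlaps Igf2os, was at 45.9, 43.0 and 44.0 FPKM in the RA/CHIR-4d libraries, against 262, 257 and 256 FPKM in the RA-4d libraries (log2 fold change -2.52 ± 0.04, adjusted p = 4.38e-08). H19, the noncoding RNA gene beside it, which is expressed from the other parental copy, was at 80.3, 79.2 and 82.9 FPKM in the RA/CHIR-4d libraries, against 442, 440.4 and 449.9 FPKM in the RA-4d libraries (log2 fold change -2.44 ± 0.03, adjusted p = 2.68e-08). Both neighbours were thus lower in every library with CHIR. Dlk1 averaged 13.7 ± 3.66 FPKM in RA/CHIR-4d and 136 ± 10.9 FPKM in RA-4d (log2 fold change -3.25 ± 0.18, adjusted p = 8.86e-06). The noncoding genes of the same locus, Meg3 (-1.27), Rian (-1.24) and Mirg (-1.29) fell as well. Cdkn1c, which encodes an inhibitor of cyclin-dependent kinases, was at 9.86, 11.3 and 12.3 FPKM in the RA/CHIR-4d libraries, against 97.8, 97.3 and 98.3 FPKM in the RA-4d libraries (log2 fold change -3.03 ± 0.08, adjusted p = 2.81e-07). Mest, which overlaps Copg2, averaged 21.4 ± 4.37 FPKM in RA/CHIR-4d and 176 ± 4.20 FPKM in RA-4d (log2 fold change -3.01 ± 0.13, adjusted p = 2.99e-06). Peg3, a zinc finger gene, averaged 21.1 ± 0.193 FPKM in RA/CHIR-4d and 114 ± 2.27 FPKM in RA-4d (log2 fold change -2.37 ± 0.04, adjusted p = 6.1e-08). Peg10 (0.21 ± 0.03), Snrpn (-0.19 ± 0.06) and Ndn (-0.09 ± 0.07) were not called. Phlda2, the one gene called higher (1.28), stood at 0.90 without RA-4d replicate 3. It also lost its call without RA/CHIR-4d replicate 2 (1.16, adjusted p by limma = 0.0547).

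In other signalling pathways, some members changed. In the FGF list, 16 of 34 passed, 3 were higher and 2 lower. Of the 3, 1 passed through RA/CHIR-4d alone and had to differ. Spry1, one of the 2 lower genes, was called neither without RA-4d replicate 2 nor without RA/CHIR-4d replicate 1, which leaves 1 lower. Fgfbp3, which encodes a carrier of FGF proteins, was at 164, 170.3 and 156 FPKM in the RA/CHIR-4d libraries, against 3.09, 3.23 and 3.11 FPKM in the RA-4d libraries (log2 fold change 5.31 ± 0.05, adjusted p = 1.06e-08). Etv4, an ETS factor gene that FGF signalling induces, averaged 6.69 ± 1.03 FPKM in RA/CHIR-4d and 0.615 ± 0.386 FPKM in RA-4d (log2 fold change 2.27 ± 0.19, adjusted p = 6.46e-05), but the FGF-responsive genes Etv5 (0.82 ± 0.13), Spry2 (0.71 ± 0.10) and Dusp6 (-0.71 ± 0.14) were not called. The receptor gene Fgfr3 fell, and averaged 1.26 ± 0.585 FPKM in RA/CHIR-4d and 12.3 ± 2.67 FPKM in RA-4d (-2.57). In the hedgehog list, 12 of 13 passed, with Ihh alone higher and 4 lower. Of the 4, 1 passed through RA-4d alone and had to differ. Ptch1, the receptor and a direct target of the pathway, was at 4.76, 4.74 and 4.25 FPKM in the RA/CHIR-4d libraries, against 14.1, 14.1 and 14.6 FPKM in the RA-4d libraries (log2 fold change -1.45 ± 0.07, adjusted p = 5.58e-06). Gli1, another target, which overlaps Arhgap9, averaged 1.49 ± 0.247 FPKM in RA/CHIR-4d and 6.71 ± 1.01 FPKM in RA-4d (log2 fold change -1.63 ± 0.13, adjusted p = 5.95e-05). The co-receptor genes Gas1 (-1.95) and Boc (-1.39) were lower. The ligand gene Ihh and the target genes thus moved in opposite directions. In the BMP, TGF-beta and Nodal list, 21 of 29 passed and 3 were lower, namely Fst, Id2 and Bmp5 (-1.56), while 14 were lower and 5 higher at an unadjusted p under 0.05 in limma, beside 28.7% and 30.5% of all genes. Bmp5 passed through RA-4d alone and had to differ. Id1 (-0.73 ± 0.04) and Id3 (-0.81 ± 0.04), which respond to BMP, were lower in level without a call. In the GSK3 and glycogen list, 13 of 14 passed and limma called none, with 3 higher and 5 lower at an unadjusted p under 0.05, a share near the 59.3% of all genes that passed this limit.

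Where markers of other cell types changed, most were lower with CHIR. Of 11 mesothelium and epicardium genes 6 passed and 5 fell, 2 of which passed through RA-4d alone. Wt1, a zinc finger gene of the mesothelium, was at 0.451, 0.660 and 0.650 FPKM in the RA/CHIR-4d libraries, against 12.4, 13.8 and 13.2 FPKM in the RA-4d libraries (log2 fold change -3.15 ± 0.10, adjusted p = 6.96e-07). Tcf21 averaged 0.0305 ± 0.0529 FPKM in RA/CHIR-4d and 5.03 ± 0.928 FPKM in RA-4d (log2 fold change -2.54 ± 0.14, adjusted p = 8.91e-06). The list summed to 79.0 to 88.0 FPKM in RA/CHIR-4d and 229 to 236 FPKM in RA-4d, most of it Krt19. Of 18 cardiac genes 9 passed and 4 fell, 3 of which passed through RA-4d alone. Myl7, an atrial myosin light chain gene, was at 1.80, 1.90 and 1.55 FPKM in the RA/CHIR-4d libraries, against 79.4, 75.0 and 62.5 FPKM in the RA-4d libraries (log2 fold change -4.73 ± 0.10, adjusted p = 1.82e-07). The cardiac list summed to 9.99 to 12 FPKM in RA/CHIR-4d and 83.0 to 104 FPKM in RA-4d. The XEN line reached 111 to 134 FPKM on it, so this sum does not mark cardiac cells by itself. Hand2, a factor of the heart and limb, averaged 0.415 ± 0.246 FPKM in RA/CHIR-4d and 4.44 ± 0.799 FPKM in RA-4d (log2 fold change -1.95 ± 0.17, adjusted p = 7.96e-05). Of 25 neural and neural crest genes 17 passed, 2 were higher and 7 lower, and 5 of the 7 passed through RA-4d alone. Of the 2 higher genes, 1 passed through RA/CHIR-4d alone. That list summed to 46.4 to 53.9 FPKM in RA/CHIR-4d and 98.8 to 101 FPKM in RA-4d. Sst, the somatostatin gene, was at 0.670, 0 and 0 FPKM in the RA/CHIR-4d libraries, against 37.2, 34.5 and 37.5 FPKM in the RA-4d libraries (log2 fold change -4.98 ± 0.20, adjusted p = 2.19e-06). Pax6, a neural factor gene, averaged 2.29 ± 0.194 FPKM in RA/CHIR-4d and 8.22 ± 0.142 FPKM in RA-4d (log2 fold change -1.49 ± 0.08, adjusted p = 1.07e-05). Dbx1 was listed at 0 in all 3 RA/CHIR-4d libraries and averaged 2.61 ± 0.448 FPKM in RA-4d. Of 19 trophoblast genes 11 passed, 2 were higher and 3 lower, and 1 of the 2 passed through RA/CHIR-4d alone. Ascl2, a trophoblast gene that is also a Wnt target in the gut, averaged 4.83 ± 1.06 FPKM in RA/CHIR-4d and 0.474 ± 0.441 FPKM in RA-4d (log2 fold change 2.01 ± 0.24, adjusted p = 0.000349). Gata3, a trophoblast regulator, was at 0.656, 0.791 and 1.26 FPKM in the RA/CHIR-4d libraries, against 10.03, 11.6 and 10.7 FPKM in the RA-4d libraries (log2 fold change -2.64 ± 0.14, adjusted p = 6.58e-06). Of 16 epithelial junction and keratin genes 15 passed and 5 were lower. The claudin gene Cldn7 was at 7.38, 5.89 and 9.18 FPKM in the RA/CHIR-4d libraries, against 38.2, 36.6 and 32.6 FPKM in the RA-4d libraries (log2 fold change -2.13 ± 0.14, adjusted p = 2.18e-05). The keratin gene Krt8 averaged 247 ± 7.69 FPKM in RA/CHIR-4d and 518 ± 10.5 FPKM in RA-4d (-1.07), and Cdh1, the E-cadherin gene, was not called (0.56 ± 0.05). The part of a changed cell mixture in any result was not tested.

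**Figure D4:**
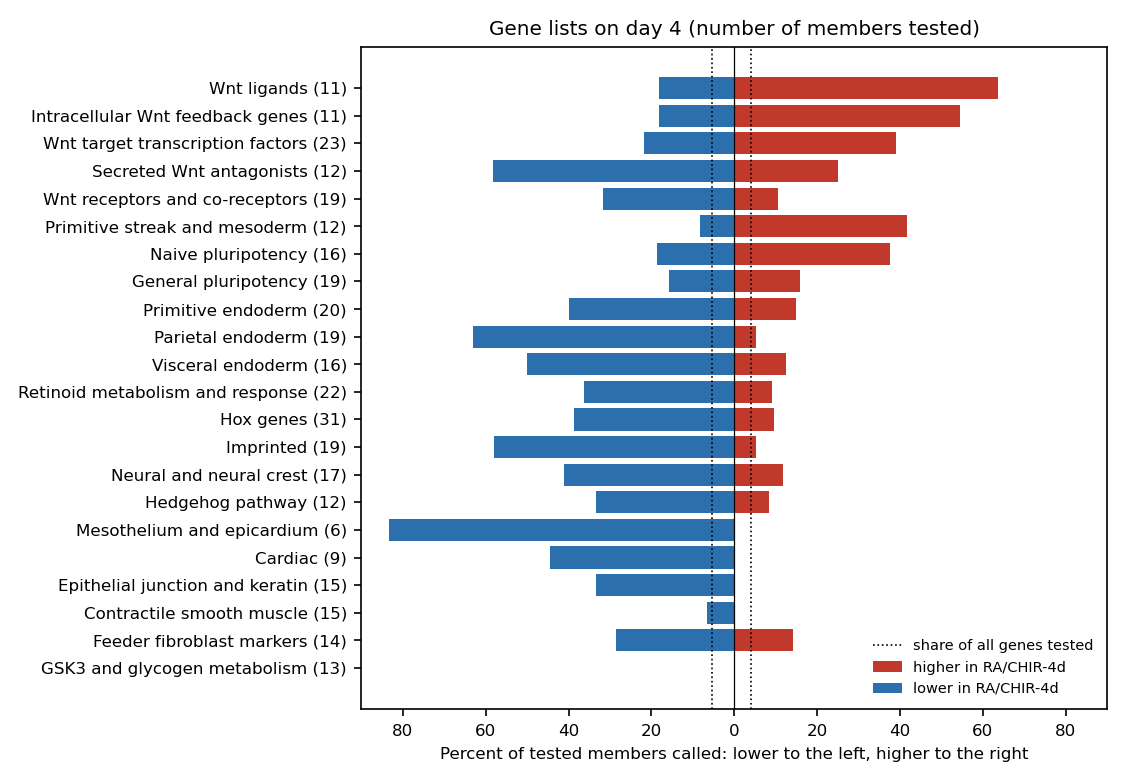
Share of tested members called higher (to the right) and lower (to the left) in RA/CHIR-4d, for 22 gene lists with the number of members tested in brackets. The dotted lines mark the shares over all genes tested, 4.11% higher and 5.31% lower, and members that passed the filter through 1 group alone had to differ. Wnt ligands and intracellular feedback genes reach furthest to the right, and mesothelium and parietal endoderm reach far to the left.

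Of 16 genes of MYC and ribosome biogenesis, all of which passed, limma called Mycn alone, while 11 were higher and 3 lower at an unadjusted p under 0.05, beside 30.5% and 28.7% of all genes. Of 21 cell cycle genes, all of which passed, 2 were higher and 2 lower. One of the 2 higher genes, Cdkn1a at 1.0, stood at 0.98 without RA/CHIR-4d replicate 1, and it also lost its call without RA-4d replicate 1 and after either rescaling, which leaves Ccnd1. Mki67 (-0.42 ± 0.06), Ccna2 (-0.06 ± 0.04) and Pcna (0.49 ± 0.03) were not called. Of 14 p53 targets, all of which passed, 4 were higher and none lower (28.6% called, beside 9.41% of all genes), and 10 were higher and 0 lower at an unadjusted p under 0.05 in limma, beside 30.5% and 28.7% of all genes. Of the 4, 1 was under 1 FPKM in every RA-4d library, so it passed through RA/CHIR-4d alone and had to differ. Phlda3, a p53 target that inhibits AKT, averaged 168 ± 3.68 FPKM in RA/CHIR-4d and 70.3 ± 3.71 FPKM in RA-4d (log2 fold change 1.25 ± 0.05, adjusted p = 1.44e-06). Gdf15, a secreted stress factor gene, averaged 4.13 ± 0.835 FPKM in RA/CHIR-4d and 0.738 ± 0.175 FPKM in RA-4d (log2 fold change 1.56 ± 0.15, adjusted p = 0.000127). Mdm2 (-0.03 ± 0.05) and Bax (-0.08 ± 0.04) were not called. Asns, the asparagine synthetase gene of the amino acid response, was at 274, 265 and 264 FPKM in the RA/CHIR-4d libraries, against 49.7, 47.6 and 45.5 FPKM in the RA-4d libraries (log2 fold change 2.47 ± 0.04, adjusted p = 7.86e-08). Atf4 (-0.10 ± 0.04) and Ddit3 (-0.07 ± 0.06), factors of that response, were not called. Among the most abundant genes that changed, Fth1, the ferritin heavy chain gene, was at 1379, 1411 and 1387 FPKM in the RA/CHIR-4d libraries, against 590.3, 580.5 and 562 FPKM in the RA-4d libraries (log2 fold change 1.27 ± 0.03, adjusted p = 1.82e-07). Lgals1, which encodes galectin-1, averaged 834 ± 12 FPKM in RA/CHIR-4d and 191 ± 11.5 FPKM in RA-4d (log2 fold change 2.12 ± 0.04, adjusted p = 1.71e-07). On the lower side, Ecm1 was at 20.1, 20.9 and 24.8 FPKM in the RA/CHIR-4d libraries, against 748, 684 and 721 FPKM in the RA-4d libraries (log2 fold change -4.97 ± 0.08, adjusted p = 6.1e-08). Clu, which encodes clusterin, averaged 38.8 ± 0.801 FPKM in RA/CHIR-4d and 609 ± 8.60 FPKM in RA-4d (log2 fold change -3.94 ± 0.03, adjusted p = 4.96e-09).

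The effect of CHIR, the log2 fold change of RA/CHIR over RA within a day, on day 4 was set against that on day 10, the last day of the inducers, in a fit of 12 libraries in which the days share no library. The difference between the 2 effects was called for 1986 of the 13249 genes (15.0%), 1043 with a higher effect on day 4 (7.87%) and 943 with a lower one (7.12%). Genes that were silent on day 4 and active on day 10 were not part of this test. Of the 11 Wnt ligand genes tested, 9 had a higher effect on day 4. The genes of this test are those kept by the day 4 filter. On day 4, 6 ligand genes passed it through RA/CHIR-4d alone, as did Notum, Sp5 and Cdx1. For these a rise on day 4 was built in, and the ligand count supports nothing more. Wnt6 averaged 30 FPKM in RA/CHIR-10d and 26.2 FPKM in RA-10d, and its effect on day 4 exceeded that on day 10 by 5.65 ± 0.13 (adjusted p = 4.92e-11 in limma). Of the 11 feedback genes, 5 had a higher and 1 a lower effect on day 4. Axin2 averaged 47.9 FPKM in RA/CHIR-10d and 18.3 FPKM in RA-10d, an effect of 1.35 ± 0.06, so the effects differed by 3.20 ± 0.08 (adjusted p = 1.07e-10). Notum averaged 103 FPKM in RA/CHIR-10d, close to its day 4 level, but 14.3 FPKM in RA-10d, and its effects differed by 3.52 ± 0.14 (adjusted p = 3.87e-09). Sp5 had an effect of 1.1 ± 0.11 on day 10, with a difference of 3.80 ± 0.15 (adjusted p = 3.16e-09). Cdx1 averaged 1.47 FPKM in RA/CHIR-10d and 0.0330 FPKM in RA-10d, with a difference of 4.75 ± 0.16 (adjusted p = 6.36e-10).

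The endoderm genes ran the other way. Of the 20 primitive endoderm genes, 18 had a lower effect on day 4 than on day 10, and of the 19 parietal genes 15 had a lower one. Sox17 averaged 333 FPKM in RA/CHIR-10d and 40.3 FPKM in RA-10d, and the effect was smaller on day 4, with a difference of -1.85 ± 0.11 (adjusted p = 7.11e-08). Dab2, which was lower on day 4, had an effect of -1.06 ± 0.04 on day 10. Lamc1 had an effect of 1.05 ± 0.03 and Lama1 one of 3.21 ± 0.05 on day 10. Cyp26a1, lower in level on day 4, had an effect of 2.95 ± 0.04 on day 10, at 1376 FPKM in RA/CHIR-10d and 177 FPKM in RA-10d, a difference in effect of -3.71 ± 0.05 (adjusted p = 1.55e-12). Of the 16 naive pluripotency genes tested, 2 had a higher and 8 a lower effect on day 4 than on day 10. Of the 19 general pluripotency genes, 1 had a higher and 13 a lower one. Nanog, higher on day 4, had an effect of -0.16 ± 0.18 on day 10, whereas Esrrb had 4.24 ± 0.10, and its effects were not called different (-0.15 ± 0.14, adjusted p = 0.39). Tgm2 had an effect of -4.96 ± 0.10 on day 10 and a difference of 0.19 ± 0.14 (adjusted p = 0.3). Gata6 had an effect of -1.07 ± 0.04 on day 10, with a difference of 0.11 ± 0.06 (adjusted p = 0.151). Of the 15 smooth muscle genes tested, 10 had a higher effect on day 4. Acta2, level on day 4, averaged 35.0 FPKM in RA/CHIR-10d and 469 FPKM in RA-10d.

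**Figure D5:**
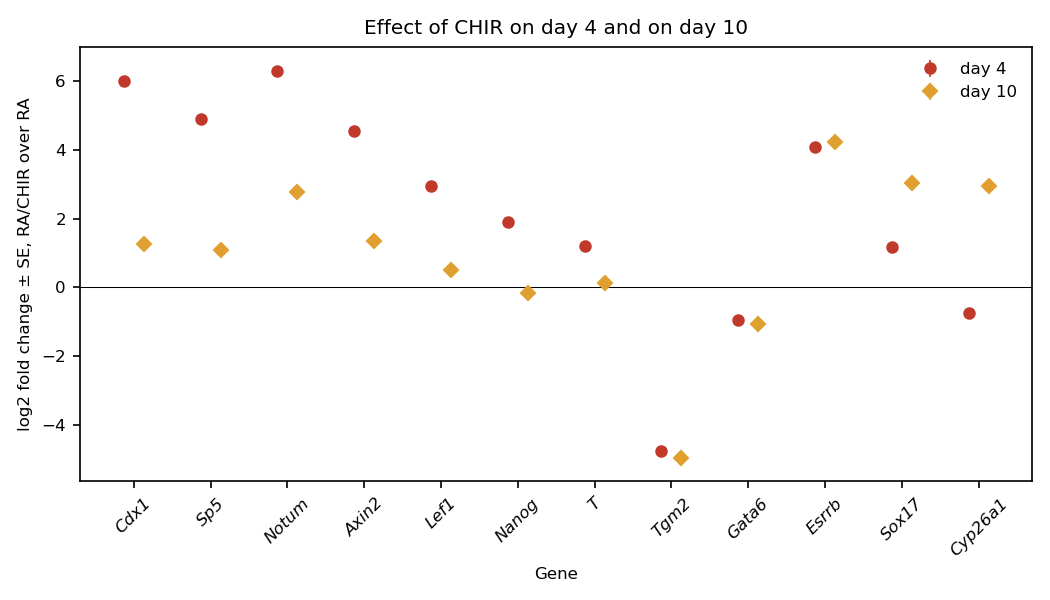
Log2 fold change of RA/CHIR over RA, with its standard error, on day 4 and on day 10 for 12 genes; most error bars are hidden by the symbols. The effects on Axin2, Sp5, Notum and Cdx1 are larger on day 4, that on Sox17 is larger on day 10, that on Cyp26a1 changes sign, and those on Esrrb and Tgm2 lie close together.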

How the data were processed

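Poly(A) RNA of 33 samples in 11 groups of 3 was sequenced as 150 bp paired reads to a depth near 25M, per the labels' protocols. Trimmomatic 0.33, HISAT2 2.0.4, Cuffdiff, Cufflinks and the build GRCm38 are named, without parameters, per the submitters' processing notes. The deposited table holds FPKM per gene as the authors computed it. It has no fragment counts, so the depth behind each value is unknown. Low values gave relative fragment numbers of 1.01 to 1.202 for RA/CHIR-4d and 1.0 to 1.266 for RA-4d, with RA-4d replicate 1 as 1.0.

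Gene names and coordinates are from GENCODE M21 (GRCm38), which held 52398 of the 52631 identifiers. A spreadsheet had turned 13 symbols into dates, and these were restored; 198 genes share a symbol and are not named singly. In 62 cases a gene, 2 of them protein coding, was listed at 0 in a library of the 6 while its group had 20 FPKM or more, so a 0 is a listed value and not absence.

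Log2(FPKM + 1) was used without further scaling. Genes at 1 FPKM or more in at least 3 of the 6 libraries were fitted with limma 3.58.1 in R 4.3.3, with a trended prior variance, 4 residual and 3.08 prior degrees of freedom, and two-sided p-values adjusted by the Benjamini-Hochberg method. The difference between day 4 and day 10 used a fit of 12 libraries, with 8 residual degrees of freedom, on the same genes. An exact permutation test of 3 against 3 libraries cannot give a p under 0.1, so none is quoted. FPKM errors are SD (n = 3), and those of fold changes are standard errors of the fit. The fit was tested on simulated data with known changes. The 42 gene lists were described by counts and medians, with no set test. The members and lists were chosen with earlier results of these data known.

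Named genes are the 15 highest and 15 lowest called genes whose higher group averaged 5 FPKM or more and whose libraries did not overlap, the 8 most abundant called genes each way, up to 6 called members of each list described each way, and a fixed set of pathway and identity genes. Predicted, clone-named and shared-symbol genes were left out, and not every gene the rule picks is printed; some genes are not reported here. Further list members are named by their list, called or not, to show its range. Same-numbered libraries of the groups correlated at 0.03, 0.057 and 0.023 in their deviations from the group means, so the numbers do not pair them. Alternatives were another scaling, another pseudocount, other filters, no variance trend, all 33 libraries in a single fit, no minimum fold change, the replicate number as a block and leaving out each library. Python 3.11.15, numpy 2.4.6, pandas 2.3.3, scipy 1.17.1 and matplotlib 3.10.9 were used.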

Additional observations from a re-analysis of the deposited data

Results flagged for a closer look

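For 9 of 12 chosen genes, the effects of CHIR on day 4 and day 10 differed, by the test of the difference itself in the limma fit of 12 libraries. Of all genes tested, 15.0% were called different. The 12 were picked by name, so their count says nothing about genes in general. Cdx1, Sp5, Notum, Lef1, T and Nanog were under 1 FPKM in every RA-4d library. They passed the filter through RA/CHIR-4d alone, so a rise on day 4 was built in. The values below are the log2 effect on day 4 minus that on day 10. Among Wnt targets the difference was 4.75 ± 0.16 for Cdx1, 3.80 ± 0.15 for Sp5, 3.52 ± 0.14 for Notum, 3.20 ± 0.08 for Axin2 and 2.43 ± 0.29 for Lef1. For the mesoderm gene T it was 1.09 ± 0.22, and without RA/CHIR-4d replicate 3 it was 0.97 and no longer called. For Nanog it was 2.05 ± 0.25, while of the 16 naive pluripotency genes tested 2 had a higher and 8 a lower effect on day 4. The difference was negative, that is, the effect was lower on day 4, for Cyp26a1 (-3.71 ± 0.05) and for Sox17 (-1.85 ± 0.11). Esrrb, Tgm2 and Gata6 were not called different.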

How the results depend on the processing

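Direction was followed under the alternatives only for the named genes, the called list members and the genes chosen for the day 10 comparison. Among these, no called result changed direction in any alternative run. Uncalled values near 0 did: Ctnnb1 (-0.01) ranged up to 0.01 and Acta2 (0.00) from -0.05 to 0.04, and the day 4 minus day 10 difference became 0.25 for Esrrb after quantile normalization and -0.05 and -0.3 for Tgm2 after quantile normalization and with a pseudocount of 0.1. The count of 1247 called genes on day 4, with 544 higher and 703 lower, was 1241 after median-ratio scaling, 1248 after quantile normalization, 1722 with a pseudocount of 0.1 and 1231 without a filter on low values. With a mean of at least 5 FPKM required, 681 genes were called, 276 higher and 405 lower, all 681 of them among the 1247; fewer genes, 9479, were then tested. Without a minimum fold change 7166 genes passed, 3668 higher and 3498 lower, by construction of that rule. Leaving out each library in turn gave 1243 to 1265 calls, 539 to 566 higher and 699 to 717 lower, and 1183 to 1187 of them were shared with the full fit. With the replicate number as a block, 1247 genes were called, 549 higher and 698 lower, and 1240 were shared; the same-numbered libraries do not pair (correlations 0.03, 0.057 and 0.023), and RA/CHIR-4d replicate 1 correlated best with RA-4d replicate 3, at 0.034. The 1986 differences between day 4 and day 10 (1043 higher on day 4, 943 lower) became 1964 to 2008 with each library left out, with 1031 to 1067 higher and 929 to 946 lower, and 1984 with the block. They numbered 1977 after median-ratio scaling and 2420 with a pseudocount of 0.1 (1273 higher, 1147 lower). After quantile normalization they numbered 1963, with 983 higher and 980 lower, so the excess of higher effects was nearly gone. Depth is unknown, so the precision of weak genes cannot be given, and with 3 libraries a group a single library can decide a call near the fold threshold. Both groups carry retinoic acid, and an effect of CHIR alone was not analysed here.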

Other observations

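Families of regulators and secreted factors outside the pathways above also split. Their counts are to be read beside the shares of all genes tested, 4.11% higher and 5.31% lower. Of 69 GATA, SOX and FOX genes, 42 passed the filter, 4 were higher and 12 lower in RA/CHIR-4d, 6 of the 12 having passed through RA-4d alone. Of the 4 higher genes, 1 passed through RA/CHIR-4d alone. Forkhead genes of mesoderm were among the lowest, with Foxc2 at 0.377, 0.324 and 0.292 FPKM in the RA/CHIR-4d libraries, against 17.6, 17.2 and 14.5 FPKM in the RA-4d libraries (log2 fold change -3.71 ± 0.10, adjusted p = 4.02e-07) and Foxd2 averaging 0.381 ± 0.130 FPKM in RA/CHIR-4d and 12.2 ± 0.213 FPKM in RA-4d (log2 fold change -3.26 ± 0.10, adjusted p = 6.99e-07), while Foxf2 was higher, at 18.4 ± 1.33 FPKM in RA/CHIR-4d and 4.97 ± 0.653 FPKM in RA-4d (1.71). Its relative Foxf1, given above, fell, so the 2 Foxf genes moved in opposite directions. Of 40 nuclear receptor genes, 22 passed, 3 were higher and 5 lower, and 1 of the 5 passed through RA-4d alone. Nr2f1, an orphan receptor gene, was at 0.752, 1.07 and 0.886 FPKM in the RA/CHIR-4d libraries, against 25.4, 18.96 and 23.8 FPKM in the RA-4d libraries (log2 fold change -3.63 ± 0.13, adjusted p = 1.16e-06), and its paralog Nr2f2 averaged 8.51 ± 1.03 FPKM in RA/CHIR-4d and 35.8 ± 0.917 FPKM in RA-4d (log2 fold change -1.96 ± 0.08, adjusted p = 3e-06). Pparg, the adipocyte regulator, averaged 0.186 ± 0.169 FPKM in RA/CHIR-4d and 4.18 ± 0.354 FPKM in RA-4d (log2 fold change -2.13 ± 0.14, adjusted p = 2.22e-05).

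Of 42 chemokine and IGF-binding protein genes, 16 passed, 4 were higher and 6 lower, and 1 of the 6 passed through RA-4d alone. Cxcl12, which encodes the ligand of CXCR4, was at 1.17, 1.18 and 1.17 FPKM in the RA/CHIR-4d libraries, against 15.3, 13.9 and 13.3 FPKM in the RA-4d libraries (log2 fold change -2.80 ± 0.09, adjusted p = 6.19e-07), whereas the receptor gene Cxcr4 was at 12.2, 10.4 and 9.20 FPKM in the RA/CHIR-4d libraries, against 1.49, 1.24 and 1.91 FPKM in the RA-4d libraries (log2 fold change 2.19 ± 0.14, adjusted p = 1.79e-05). Ligand and receptor thus differed in direction, and no library of either group overlapped for either gene. Cxcl14 averaged 32.3 ± 1.64 FPKM in RA/CHIR-4d and 0.893 ± 0.228 FPKM in RA-4d (log2 fold change 4.14 ± 0.11, adjusted p = 3.19e-07), and Cxcl10, which overlaps Art3, 1.80 ± 0.926 FPKM in RA/CHIR-4d and 35.2 ± 1.19 FPKM in RA-4d (log2 fold change -3.75 ± 0.24, adjusted p = 1.92e-05). Igfbp5 fell, at 3.53, 3.38 and 3.68 FPKM in the RA/CHIR-4d libraries, against 41.8, 43.1 and 45.7 FPKM in the RA-4d libraries (log2 fold change -3.30 ± 0.06, adjusted p = 1.31e-07), and Igfbp2 was higher, with a log2 fold change of 1.27. Of 53 genes for secreted proteases and their inhibitors, 21 passed, 1 was higher and 10 were lower, beside 4.11% and 5.31% of all genes. Without RA-4d replicate 3, 2 genes of this list were called higher. Of 60 axon guidance genes, 43 passed, 3 were higher and 10 lower, beside 4.11% and 5.31% of all genes. Of the 3, 1 passed through RA/CHIR-4d alone, and of the 10, 4 passed through RA-4d alone. Efnb2, an ephrin gene, averaged 2.70 ± 0.204 FPKM in RA/CHIR-4d and 21.1 ± 0.942 FPKM in RA-4d (log2 fold change -2.58 ± 0.08, adjusted p = 5.7e-07) and Slit3 0.310 ± 0.0669 FPKM in RA/CHIR-4d and 5.84 ± 0.519 FPKM in RA-4d (log2 fold change -2.38 ± 0.11, adjusted p = 3.91e-06). Of 11 immediate early genes, 8 passed and 3 were lower, and 1 of the 3, Fos, passed through RA-4d alone. Fos was at 0.981, 0.768 and 0.581 FPKM in the RA/CHIR-4d libraries, against 9.749, 10.4 and 9.55 FPKM in the RA-4d libraries (log2 fold change -2.62 ± 0.11, adjusted p = 2.81e-06).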
